A study of Mus musculus with 8 samples.

Results

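Insulin-like growth factor 1 (Igf1), its receptor Igf1r, the insulin receptor Insr and the IGF-binding proteins Igfbp1 to Igfbp7 were followed in whole hearts of mouse embryos at E18.5, shortly before birth. The 10 genes were chosen by name, with earlier results of these data known, and every probe whose accession belongs to one of them was kept. This gave 15 probes of 9 genes among 41174 probes on the array, since Igfbp6 was matched by no probe. The hearts came from 4 WT embryos and 4 embryos labelled SIRT1 KO, 1 heart per array, all on the C57BL/6 background (C57BL/6J in the methods) and from the same kind of cross between heterozygous parents on a chow diet. The knockout was carried in the germ line and lay in every tissue, so a difference in the heart cannot be assigned to the heart's own SIRT1, the NAD+-dependent deacetylase that the study removed to ask how it shapes the maturing heart. The methods state that the study used hearts of both sexes, without giving the sex of each arrayed embryo.

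IGF1 is a small secreted protein related to insulin that drives growth of many tissues, the heart among them. It binds IGF1R, a tyrosine kinase receptor closely related to the insulin receptor, and the activated receptors signal through insulin receptor substrate proteins to phosphoinositide 3-kinase and AKT. In tissue fluid and blood, IGFs are held by binding proteins that carry them, keep them from the receptor or deliver them close to it, and proteases release the ligand by cutting these proteins.

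The 10 genes differ in how they are switched on, and Igfbp1 is the textbook case of a gene that insulin turns off, through FoxO transcription factors that bind an insulin response element in its promoter. Its promoter is shown because Igfbp1 was the member that varied most between hearts. In the RefSeq sequence of GRCm38.p6 the window lies at chr11:7197537-7197836 on the + strand and holds 250 bases before the transcription start and 50 bases from it, with the letters CAAAACA in capitals.

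Igfbp1 promoter: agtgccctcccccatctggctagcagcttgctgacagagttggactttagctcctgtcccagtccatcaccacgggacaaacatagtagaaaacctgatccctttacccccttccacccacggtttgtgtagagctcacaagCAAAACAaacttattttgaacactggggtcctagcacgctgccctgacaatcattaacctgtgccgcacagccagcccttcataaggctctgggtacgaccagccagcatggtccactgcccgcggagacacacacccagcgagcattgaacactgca

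These letters, the core of the insulin response element, start 108 bases before the transcription start. Searched as CAAAACA and, for the other strand, TGTTTTG, they were found in 2064 of 32851 RefSeq windows of the same length (6.28%). Of 10 windows that belong to 9 of the 10 genes, the Igfbp1 window alone held them. Such a match describes the sequence and does not show that a factor was bound in these hearts.

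Levels are given as log2 of the probe's intensity minus the 75th percentile of the same array, so a value of 0 is the intensity at that percentile, and a difference between genotypes is the mean of the hearts labelled SIRT1 KO minus the WT mean. Different probes bind with different strength, so levels are compared between hearts for 1 probe and not between probes. Between 59.5% and 64.9% of the probes were well above background on each array, and limma was run on the 25615 probes that passed this on 4 or more of the 8 arrays. The 4 WT arrays lay on 1 slide and the 4 arrays labelled SIRT1 KO on another, scanned on different days, so genotype, slide and scan day cannot be told apart in any comparison here. In whole hearts, fewer cells of a type and less RNA per cell cannot be told apart either.

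The targeted gene did not check the labels. One Sirt1 probe (A_52_P358612) was higher in the hearts labelled SIRT1 KO, at 0.58 ± 0.14 (SD, n = 4) against 0.04 ± 0.19 (SD, n = 4) in WT, a difference of 0.54 (SE 0.11, limma adjusted p = 0.0323). The other (A_51_P141152) differed by -0.11 (SE 0.11, limma adjusted p = 0.589), and by -0.21 to -0.04 with single arrays left out. Where these probes lie relative to the deleted part of the gene is not given in the sources used here. The call of the first probe did not hold under 12 of 20 other settings. Among them was an analysis of variance, the test named in the study's methods, run here on the same values (adjusted p = 0.0865). All 10 cardiomyocyte markers (such as Myh6 and Tnnt2) passed the filter on dim probes, as the labelled tissue would have them, and so did 10 of 13 liver markers with a probe, while none of 6 lung markers did.

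All 15 probes of the 9 genes passed that filter, and 14 were well above background on every array; a probe of Insr missed it on 1 array labelled SIRT1 KO. None of the 15 probes differed between genotypes at a limma adjusted p under 0.05, where the smallest was 0.131, beside 4.88% of all probes tested. At an unadjusted p under 0.05 there were 4 of 15, both Igf1 probes, Igfbp2 and Igfbp7, each with the lower mean in the hearts labelled SIRT1 KO, beside 21.5% of all probes tested. An analysis of variance, the test named in the study's methods, was run here on the same scaled and filtered values. It gave 3 at that unadjusted threshold (20.1% of all probes) and 0 after Benjamini-Hochberg adjustment (2.13% of all probes). These are not counts that the study reported. Of 20 other settings of the limma fit, 15 gave 0 past the threshold. Among these, the filter on all arrays tested 14 of the probes, and the mean over the probes of a gene tested 9 genes. The other 5 settings gave some: 2 of 15 with the normexp background correction (10% of all), 2 with arrays scaled by their median (7.43%), 5 without scaling (24.8%), 2 with the replicate number as a block (4.63%) and 1 without SIRT1 KO heart 2 (2.83%). The median difference of the 15 probes was -0.10, with 10 of them below 0, and that of all probes tested was 0.01, with 48.3% below 0. On the brightest probe of each gene, 4 genes had a difference above 0 and 5 below 0, although the number below 0 ranged from 4 to 7 over the other settings.

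Igf1, the ligand, was measured by a pair of probes, and both had a lower mean in the hearts labelled SIRT1 KO without passing the threshold. The brighter (A_51_P147942), printed 10 times on each array, read 0.25, 0.80, 0.49 and 0.65 in the WT hearts 1 to 4 and -0.12, 0.29, 0.23 and 0.26 in the hearts labelled SIRT1 KO. The groups overlapped through a single WT heart, heart 1, which lay among the hearts of the other genotype. The means were 0.55 ± 0.24 (SD, n = 4) and 0.16 ± 0.19 (SD, n = 4), a difference of -0.38 (SE 0.14, 95% confidence interval -0.70 to -0.07, limma adjusted p = 0.154). On a linear scale this put the hearts labelled SIRT1 KO at 0.764 ± 0.048 (SEM) of the WT mean. The exact two-sided permutation test gave p = 0.0857, where 4 hearts against 4 can give no less than 0.0286.

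The other Igf1 probe (A_52_P351116) gave a difference of nearly the same size. Its WT hearts read -0.42, -0.01, -0.18 and -0.09 and its hearts labelled SIRT1 KO -0.72, -0.27, -0.73 and -0.41. WT heart 1 was again the lowest of its genotype and lay between the hearts labelled SIRT1 KO. The difference was -0.36 (SE 0.13, 95% confidence interval -0.66 to -0.06, limma adjusted p = 0.165, exact permutation p = 0.0857). The level of the brighter probe above the dimmer differed by -0.02 between genotypes, with overlapping groups. Neither probe passed when any single array was left out, with differences from -0.48 to -0.29 for the brighter probe and from -0.45 to -0.29 for the other. Without scaling both passed, at -0.60 (adjusted p = 0.02) and -0.58 (adjusted p = 0.0292), while the median of all probes moved to -0.21. The dimmer also passed with median scaling, at -0.49 (adjusted p = 0.0454, median of all probes -0.12), and the brighter with the replicate block (adjusted p = 0.0491).

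Igf1r, the receptor for IGF1 and IGF2, did not pass on any of its 3 probes. The brightest (A_51_P474538) read 1.50, 1.64, 1.37 and 1.62 in WT and 1.69, 1.37, 1.09 and 1.64 in the hearts labelled SIRT1 KO, so the genotypes covered each other. Its difference was -0.08 (SE 0.14, 95% confidence interval -0.39 to 0.23, limma adjusted p = 0.774), and it turned to 0.04 without SIRT1 KO heart 3.

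A second Igf1r probe (A_51_P318365) had a difference of 0.22 (SE 0.12, limma adjusted p = 0.311) and the dimmest (A_52_P634111) one of -0.04 (SE 0.09, limma adjusted p = 0.83). That of the second ranged from 0.13 without SIRT1 KO heart 1 to 0.29 without heart 3. The level of the brightest above the dimmest differed by -0.04 between genotypes, with overlapping groups. The level of the brightest above the second was 1.14 to 1.33 in WT hearts and 0.79 to 1.11 in those labelled SIRT1 KO, without overlap. The level of the second above the dimmest was 1.47 to 1.56 in WT and 1.66 to 1.93 in the hearts labelled SIRT1 KO, again without overlap.

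Insr, the insulin receptor, had a pair of probes with differences of opposite sign. The brighter (A_52_P494514) read 0.50, 0.19, 0.49 and 0.43 in WT and 0.58, 0.28, 0.13 and 0.78 in the hearts labelled SIRT1 KO. Both the lowest and the highest value belonged to the hearts labelled SIRT1 KO. The difference was 0.04 (SE 0.15, 95% confidence interval -0.29 to 0.37, limma adjusted p = 0.902). Its sign turned with median scaling, without scaling and when some single arrays were left out, and held with quantile normalization and cyclic loess.

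The dim Insr probe (A_52_P6490) read -4.32, -4.37, -4.52 and -3.99 in WT and -4.56, -4.96, -5.24 and -4.23 in the hearts labelled SIRT1 KO, of which 3 were well above background. Here 3 of the 4 hearts labelled SIRT1 KO lay below every WT heart. The difference was -0.45 (SE 0.21, 95% confidence interval -0.92 to 0.03, limma adjusted p = 0.262), and with another background correction (normexp on the median spot signal) it was 0.09. With single arrays left out of the reported fit it ranged from -0.62 without SIRT1 KO heart 4 to -0.28 without heart 3.

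**Figure D1:**
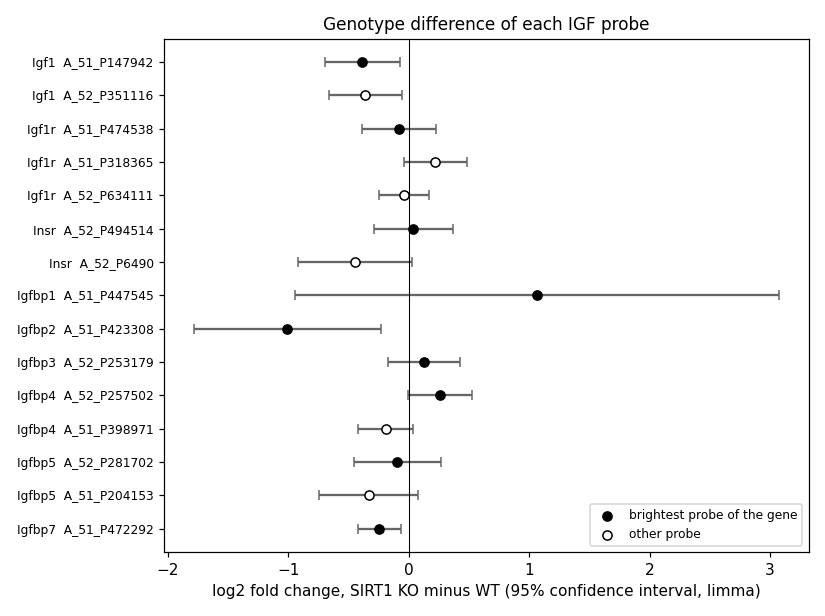
Mean of the hearts labelled SIRT1 KO minus the WT mean (log2, 4 hearts each) for all 15 probes, with the 95% confidence interval from limma; filled points are the brightest probe of each gene and open points the others. The interval of Igfbp1 reaches from -0.95 to 3.08, and those of both Igf1 probes, Igfbp2 and Igfbp7 lie below 0 although none passed after adjustment. The sign of the Igf1r, Insr, Igfbp3 and Igfbp5 brightest probes turned under at least 1 other setting. That of Igfbp1 turned only where SIRT1 KO hearts 1 and 4, its highest, were left out together, a choice that fixed the direction.

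Igfbp1, the binding protein that the fetal and adult liver secretes, had the widest spread of the 9 genes. Its probe (A_51_P447545) read -1.26, -1.88, -2.29 and -0.33 in WT and 1.61, -2.00, -2.19 and 1.09 in the hearts labelled SIRT1 KO. Hearts 1 and 4 labelled SIRT1 KO stood above all others, and hearts 2 and 3 of that genotype lay among the lowest. The highest heart was 14.9-fold above the lowest, and the standard deviation within genotypes was at the 99.9th percentile of all probes tested. The difference was 1.07 (SE 0.89, 95% confidence interval -0.95 to 3.08, limma adjusted p = 0.523, exact permutation p = 0.371). With single arrays left out it ranged from 0.41 without SIRT1 KO heart 1 and 0.58 without heart 4 to 1.61 without heart 2 and 1.67 without heart 3.

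Transcripts of liver cells varied between the same hearts. The 10 tested genes of a liver marker list (albumin, alpha-fetoprotein, fibrinogens and others) had a mean level of -0.31, -0.94, -1.12 and 0.33 in WT hearts 1 to 4, and of 2.48, -0.19, -0.74 and 1.55 in the hearts labelled SIRT1 KO. The hearts with the 3 highest liver levels were, from the top, hearts 1 and 4 labelled SIRT1 KO and WT heart 4, the same order as for Igfbp1. All 10 liver genes had a difference above 0 (median 1.32), 0 passed after adjustment and 2 of 10 passed unadjusted, beside 21.5% of all probes tested, and the summed level was 12.3 to 30.4 in WT and 14.8 to 132.7 in the hearts labelled SIRT1 KO. Of the 14 listed, Apob, Ttr and Hnf4a were too dim to test and Serpina1b had no probe. Without SIRT1 KO hearts 1 and 4 the Igfbp1 difference was -0.65, a direction fixed by the choice of these hearts, which were the highest in Igfbp1 and were picked after their values were seen. The part of liver transcripts in the Igfbp1 values was not tested.

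Igfbp2, a binding protein that is abundant in fetal tissues, had the lowest fitted difference of the 15 probes. Its probe (A_51_P423308) read -0.17, 0.16, -0.53 and -0.19 in WT and -0.93, -0.22, -1.99 and -1.61 in the hearts labelled SIRT1 KO. Of these, 3 lay below every WT heart, and heart 2 lay within the WT range. The means were -0.18 ± 0.28 (SD, n = 4) and -1.19 ± 0.78 (SD, n = 4), so the spread was wider in the hearts labelled SIRT1 KO. The difference was -1.01 (SE 0.34, 95% confidence interval -1.79 to -0.23, limma adjusted p = 0.137, exact permutation p = 0.0571).

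Relative to the WT mean, the single hearts labelled SIRT1 KO held 0.585, 0.957, 0.281 and 0.365 of the Igfbp2 signal. Without heart 2 of that genotype the difference was -1.33 and passed (limma adjusted p = 0.032), and without heart 3 it was -0.74. With all 8 hearts it passed with normexp (adjusted p = 0.0457), without scaling (adjusted p = 0.0432) and with the replicate block (adjusted p = 0.0482), and with array weights it was -0.60 (adjusted p = 0.261). SIRT1 KO hearts 1 and 4, with the highest liver levels (2.48 and 1.55), lay below every WT heart in Igfbp2, as did heart 3, with a liver level of -0.74, and the part of liver transcripts in the Igfbp2 values was not tested. The mean level of 12 fibroblast and epicardial markers was 2.75 to 2.96 in WT and 2.77, 2.88, 2.65 and 2.56 in SIRT1 KO hearts 1 to 4; hearts 3 and 4 were lowest in this mean and in Igfbp2, while the summed level of heart 3 (307) lay within the WT range. A few members carried the mean, named here after their values were seen. In SIRT1 KO hearts 1 to 4 Upk1b read -1.42, -0.86, -1.61 and -2.43, and Upk3b -0.35, 0.13, -0.53 and -0.97. On both, hearts 1, 3 and 4 lay below every WT heart and heart 2 within the WT range, as for Igfbp2. Tcf21 was at 1.29 in hearts 3 and 4, above every WT heart, and Pdgfra lay above every WT heart in all hearts labelled SIRT1 KO. Of the 12 markers 8 had a difference below 0, 0 passed and 2 passed unadjusted (Pdgfra at 0.21 and Upk1b at -0.68), beside 21.5% of all probes tested. The list had a summed level of 297 to 347 in WT and 286 to 341 in the hearts labelled SIRT1 KO, and the part of its cells in the Igfbp2 values was not tested.

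Igfbp3, the main IGF carrier of adult blood, had a difference of 0.13 (SE 0.13, 95% confidence interval -0.17 to 0.43, limma adjusted p = 0.614) on its probe A_52_P253179, which turned to -0.01 with arrays scaled by their median. It was 0.06 without WT heart 4 and 0.25 without SIRT1 KO heart 2. Its WT hearts read 0.45, 0.52, 0.31 and 0.16, and its hearts labelled SIRT1 KO read 0.58, 0.13, 0.64 and 0.60. Heart 2 of the latter was the lowest of all 8, and the other 3 lay above every WT heart.

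Igfbp4, which mostly holds IGF away from the receptor until a protease cuts it, had a pair of probes whose differences pointed in opposite directions. The brighter (A_52_P257502) read -0.31, 0.06, -0.15 and 0.01 in WT and 0.23, 0.39, 0.03 and 0.00 in the hearts labelled SIRT1 KO, a difference of 0.26 (SE 0.12, limma adjusted p = 0.24). The dimmer (A_51_P398971) read -1.39, -1.04, -1.33 and -1.17 in WT and -1.58, -1.34, -1.45 and -1.34 in the hearts labelled SIRT1 KO, a difference of -0.19 (SE 0.10, limma adjusted p = 0.31). On each probe the genotypes overlapped. The dimmer passed without scaling, at -0.41 (adjusted p = 0.0328), where the median of all probes moved to -0.21. With single arrays left out the differences ranged from 0.19 to 0.32 on the brighter probe and from -0.24 to -0.13 on the dimmer.

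The level of the brighter Igfbp4 probe above the dimmer was 1.08, 1.10, 1.18 and 1.18 in WT hearts 1 to 4 and 1.81, 1.73, 1.48 and 1.34 in the hearts labelled SIRT1 KO. These ranges did not overlap, and the genotype means lay 0.45 apart. Over the 7 probe pairs of genes with several probes, 3 did not overlap, this one and the 2 Igf1r pairs that hold the probe A_51_P318365, beside 10.6% of 8592 probe pairs of 1 gene over the whole array. The pairs were compared after the values of the single probes had been seen. Which transcripts each probe binds is not given in the sources used here.

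Igfbp5, a binding protein of connective tissue and muscle, did not pass on either probe. The brighter (A_52_P281702) read 3.10, 3.79, 3.54 and 3.32 in WT and 3.14, 3.62, 3.24 and 3.36 in the hearts labelled SIRT1 KO, with a difference of -0.10 (SE 0.16, limma adjusted p = 0.767) that turned to 0.02 without WT heart 2. The dim probe (A_51_P204153) read -3.43, -2.50, -3.07 and -3.33 in WT, while the hearts labelled SIRT1 KO lay close together between -3.48 and -3.37. Its difference was -0.33 (SE 0.18, limma adjusted p = 0.327), -0.14 without WT heart 2, the highest heart on both probes, and -0.016 with normexp.

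Igfbp7, a secreted protein of vessel walls that binds IGFs weakly, had the smallest adjusted p of the 15 probes and was the only one whose genotypes did not overlap, 1 of 15 beside 13.7% of the 25535 tested probes with a value in every heart. Its probe (A_51_P472292) read 4.51, 4.72, 4.63 and 4.68 in WT and 4.26, 4.45, 4.48 and 4.37 in the hearts labelled SIRT1 KO. Every heart labelled SIRT1 KO lay below every WT heart. The means were 4.63 ± 0.09 (SD, n = 4) and 4.39 ± 0.10 (SD, n = 4), a difference of -0.24 (SE 0.08, 95% confidence interval -0.42 to -0.06, limma adjusted p = 0.131, exact permutation p = 0.0286).

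On a linear scale the hearts labelled SIRT1 KO held 0.845 ± 0.028 (SEM) of the WT signal of Igfbp7. The spread within genotypes was at the 15.9th percentile of all probes tested. Igfbp7 passed with normexp at -0.40 (adjusted p = 0.0105), with median scaling at -0.38 (adjusted p = 0.038) and without scaling at -0.46 (adjusted p = 0.0147). Of 8 endothelial markers 7 had a difference below 0 (median -0.10) and 0 passed, with a summed level of 63.5 to 66.7 in WT and of 60.6, 59.8, 60.1 and 68.0 in hearts 1 to 4 labelled SIRT1 KO, of which 3 lay below every WT heart, and their part in the Igfbp7 values was not tested. The remaining marker lists had 0 genes past the threshold as well. Of 10 cardiomyocyte markers 8 had a difference above 0 (median 0.11) and 3 passed unadjusted. Of 6 smooth muscle markers 5 had a difference below 0 (median -0.16) and 2 passed unadjusted. Of 7 macrophage markers 5 had a difference above 0 (median 0.11) and 1 passed unadjusted. These counts stand beside 21.5% of all probes tested.

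The genes around the 9 were compared through a list of 32 other genes of IGF and insulin signaling, of which 26 were tested, 31 having a probe. Of the 26, 13 had a difference above 0 and 13 below 0, with a median of 0.01. These counts take the brightest probe of each gene. After adjustment 1 of 26 passed, Irs4, beside 4.88% of all probes tested, and 2 passed unadjusted, Irs4 and Ins2, beside 21.5%. Over all 42 tested probes of these genes 1 passed after adjustment and 5 unadjusted, the further ones being a second Ins2 probe, a dimmer Grb10 probe (A_52_P40363, difference 0.33) and a dimmer Stc1 probe (A_51_P233334, difference -0.56), which was well above background in 1 of the 4 hearts labelled SIRT1 KO. The brighter Stc1 probes differed by -0.06 and -0.15. Igf2, the main IGF of the embryo, lay between 6.15 and 6.33 in WT and between 6.25 and 6.39 in the hearts labelled SIRT1 KO, a difference of 0.08 (SE 0.07, limma adjusted p = 0.552), and is named with its clearance receptor Igf2r and the substrate Irs1 for their role and not by the rule for named genes. A second Igf2 probe (A_51_P516833) differed by 0.20 (SE 0.09). Igf2r differed by -0.04 (SE 0.09, limma adjusted p = 0.85) and Irs1 by -0.03 (SE 0.07, limma adjusted p = 0.822).

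Irs4, a substrate of the insulin and IGF1 receptors, was higher in the hearts labelled SIRT1 KO. Its probe (A_51_P344552) read -4.17, -4.17, -3.93 and -3.74 in WT and -3.25, -3.10, -3.18 and -3.42 in the hearts labelled SIRT1 KO, and every one of the latter lay above every WT heart. The means were -4.00 ± 0.21 (SD, n = 4) and -3.24 ± 0.14 (SD, n = 4), a difference of 0.77 or 1.7-fold (SE 0.12, 95% confidence interval 0.50 to 1.03, limma adjusted p = 0.00792). The probe was dim but well above background on all 8 arrays, and it passed under each of the settings tried, with adjusted p from 0.0043 to 0.0449. The size moved with the background correction, to 0.50 with normexp. Of the 1250 probes past the threshold over the whole array, 1017 were higher in the hearts labelled SIRT1 KO and 233 lower. Without the filter on dim probes the median difference of all probes was 0.09, beside 0.01 with it. The part of this shift in the Irs4 difference was not tested. The gene's other probe did not rise well above background in any heart.

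Ins2, which encodes insulin, lay low on its probe A_52_P407060 and differed by 0.26 (SE 0.10, limma adjusted p = 0.191). Sh2b2, an adaptor of the insulin receptor, differed by 0.19 on its probe A_51_P404023 (SE 0.08, limma adjusted p = 0.245), and by -0.03 without scaling.

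By role, the 5 genes of the growth hormone axis that lies upstream of Igf1 in the growing animal (Ghr, Jak2, Socs2, Stat5a and Stat5b) had differences from 0.07 to 0.29 on their brightest probes, and 0 passed. The upper end was Stat5b, where SIRT1 KO heart 2 read 2.99 and the other hearts of that genotype read 2.08 to 2.32. Other probes of Stat5b (A_51_P281938) and Ghr (A_52_P680935) had differences of -0.16 and -0.13. The proteases Pappa and Htra1, which cut binding proteins, had differences of -0.31 (limma adjusted p = 0.278) and -0.25 (limma adjusted p = 0.26). Of 8 receptor substrates and adaptors, Irs4 alone passed, and 3 had a difference above 0.

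**Figure D2:**
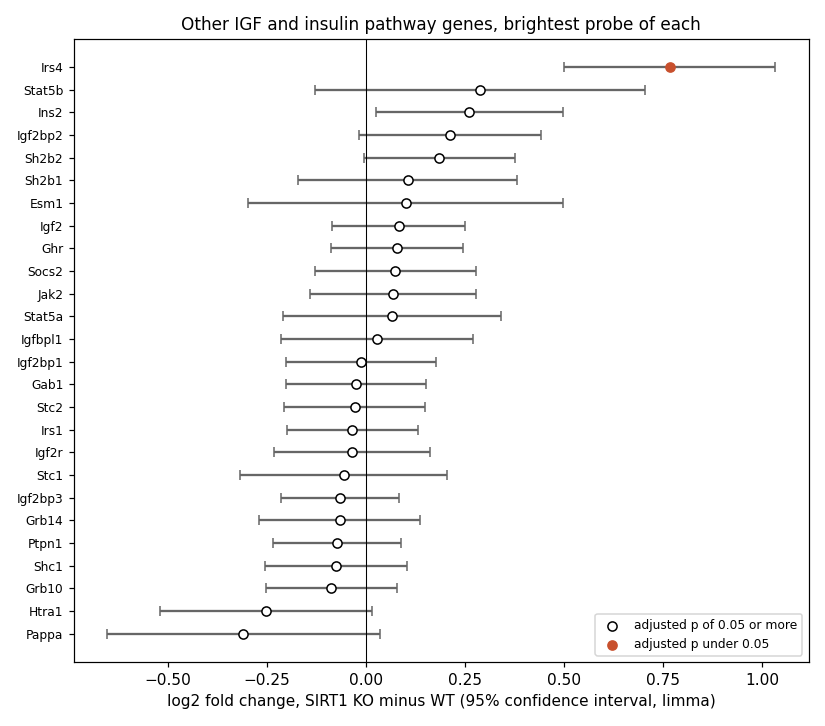
Mean of the hearts labelled SIRT1 KO minus the WT mean (log2, 4 hearts each) for the brightest tested probe of 26 other IGF and insulin pathway genes, with the 95% confidence interval from limma; the filled point passed at an adjusted p under 0.05. Irs4 stands at 0.77, and the other 25 genes lie between -0.31 and 0.29 and did not pass.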

How the data were processed

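RNA of 8 E18.5 hearts was measured on one-color Agilent mouse arrays. The authors deposited the intensity of each spot as Agilent Feature Extraction (12.0.0.7 in the file headers) wrote it, background-subtracted and not scaled between arrays; their series table held the same intensities in 100% of spots within a relative tolerance of 1e-06. Here log2 of the processed signal minus the array's 75th percentile over non-control probes was taken, control and outlier spots were left out, and spots of a probe were averaged. RefSeq (GRCm38.p6) accessions named 28223 probes (68.55%) of 19096 genes. The members and gene lists were chosen with earlier results of these data known. A probe was tested where 4 or more of the 8 arrays had it well above background, with limma 3.58.1 in R 4.3.3 (lmFit, eBayes) and Benjamini-Hochberg adjustment at 0.05 over 25615 probes. The text names all members, Sirt1, and the pathway genes past the threshold or with the 3 smallest p-values; others are marked where they appear, and 1 gene of the pathway list is not reported here. On simulated arrays of 25535 probes with 200 changed by a log2 difference of 1, 83.5% of these were recovered and 4.02% of the calls were unchanged probes. The simulated noise was independent between probes and held no slide effect. Among the members only Igfbp1 and Igfbp2 differed by as much as 1, so these rates say little about the smaller differences. No spot was saturated, and the number of arrays limits the precision. Python 3.11.15 with pandas 2.3.3, numpy 2.4.6 and matplotlib 3.10.9 read the arrays and made the plots.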

Additional observations from a re-analysis of the deposited data

Results flagged for a closer look

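In the brighter Igf1 probe, heart 1 labelled SIRT1 KO lay at -0.12, far below the other 3 hearts of its genotype (0.23 to 0.29), and in the Igfbp3 probe heart 2 labelled SIRT1 KO lay at 0.13, below the other 3 (0.58 to 0.64). These were 2 of 36 groups of 4 hearts checked for a heart far from the others, and chance marks about 1 group in 20.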

How the results depend on the processing

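Of 404 differences recomputed under 21 other settings for 20 probes, 361 kept their sign and side of the threshold, 19 changed sign, 12 passed only under the other setting and 12, all of the Sirt1 probe, passed only in the reported fit. Scaling by the median or not at all moved the median difference of all probes to -0.12 and -0.21 (reported 0.01). Of the 15 IGF probes, 2 passed with normexp (Igfbp2 and Igfbp7), 2 with median scaling (Igfbp7 and Igf1 A_52_P351116), 5 without scaling (both Igf1, Igfbp2, Igfbp4 A_51_P398971 and Igfbp7), and 0 to 1 with 1 array left out, where 1 is Igfbp2 without SIRT1 KO heart 2. With the replicate block 2 passed, Igf1 A_51_P147942 (adjusted p = 0.0491) and Igfbp2 (adjusted p = 0.0482). On both, the heart labelled SIRT1 KO lay below the WT heart of the same number for every number. Deviations of same-numbered hearts correlated at 0.204, 0.207, 0.0562 and 0.141, and every heart correlated best with its own number. The labels do not say what a number marks, so the reported fit did not take the numbers as pairs. Pathway genes that passed were 1 of 26 in the reported fit (4.88% of all probes) and 1 of 26 with any array left out (657 to 1825 of 25615 probes). With no filter 2 of 30 passed, Irs4 and the dim Ins1, beside 988 of 41079 probes. Without scaling 5 of 26 passed, beside 24.8% of all probes. Signs changed for Igf1r A_51_P318365 without scaling (-0.00033), Igf1r A_52_P634111 with normexp (0.010), Insr A_52_P494514 with median scaling (-0.094), no scaling (-0.18), array weights (-0.015), the mean over probes (-0.20) and without SIRT1 KO hearts 1 and 4 (-0.20), Insr A_52_P6490 with normexp (0.093), Igfbp1 without those hearts (-0.65), Igfbp3 with median scaling (-0.0058) and no scaling (-0.093), Sh2b2 without scaling (-0.034), and Igf1r A_51_P474538 with the mean over probes (0.033). With 1 array left out, signs changed within -0.16 to 0.039 (Igf1r A_51_P474538), -0.10 to 0.0061 (Igf1r A_52_P634111), -0.073 to 0.14 (Insr A_52_P494514) and -0.21 to 0.022 (Igfbp5 A_52_P281702). Causes were not tested. Leaving out SIRT1 KO hearts 1 and 4 together was chosen after seeing the data, which fixed the direction for Igfbp1, highest in these hearts. The deposited series table gave no separate value, being equal to the intensities, and no slide block could be fitted.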
